A study of Mus musculus with 18 samples.

Results

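The E2F transcription factors and their DP dimer partners, E2f1 to E2f8 with Tfdp1 and Tfdp2, were taken by gene name from count tables of mouse splenic B cells. These 10 genes were sought among 40327 genes in the tables of the 129 allele and 39147 in those of the Cast allele. All 10 had a row in the 129 tables and 9 had one in the Cast tables, where no row of the tables used here carried the name E2f1. Values of E2f1 are therefore from the 129 allele alone. The animals were female F1 hybrids of the genotype 129S1/Cast; Xist+/-, so each autosomal gene had a 129 and a Cast copy. All 6 samples shared the Xist+/- genotype, and by their labels it was always the Cast X that was inactive. All 10 genes lie on autosomes. The cells were CD23+ B cells, CD23 being a low-affinity receptor of immunoglobulin E. The naive group, 3 samples, had no treatment, and the stimulated group, 3 samples, was kept in vitro with CpG at 1 µM for 24 h. CpG is DNA that a Toll-like receptor senses. The labels give no age and do not say whether samples with the same replicate number came from 1 animal. The other 12 of the 18 samples of the series are not analysed here.

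E2F proteins bind promoters of genes for DNA replication and cell division. E2F1, E2F2 and E2F3 are the activators, which are held in check by the retinoblastoma protein until cyclin-dependent kinases release them. E2F4 and E2F5 act mostly as repressors together with the pocket proteins p107 and p130, E2F6 represses as part of a Polycomb complex, and E2F7 and E2F8 are atypical repressors that need no DP partner. Resting lymphocytes are known for repressor complexes of E2F4, and mitogens start the E2F programme as cells enter the cycle.

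The total of gene counts ranged from 1987266 to 2928236 for the 129 allele and from 2465073 to 3321753 for the Cast allele, and only reads that could be given to a strain were in them. Levels are in CPM, read counts scaled to library size after TMM normalization. Summed CPM of 10 B cell markers was between 15050 and 17420 in the naive and between 3883 and 4901 in the stimulated samples of the 129 tables, with no marker at 0 and all 10 called lower. Markers of macrophages moved with the groups too. Of 16 listed, 15 had a row in the 129 tables, and their summed level was between 3066 and 6440 CPM in naive and between 30.6 and 38.9 CPM in stimulated samples, where 1 of the 15 was at 0 in all 3. All 13 that were tested were called lower, beside 27.0% of all genes tested in the 129 tables. Several other marker lists, with the alleles summed, were lower as well. T cell markers went from between 52.2 and 67.6 to between 6.55 and 8.76 CPM (4 of 4 tested called lower) and erythroid markers from between 36.8 and 75.2 to between 0.597 and 1.36 CPM (3 of 3). Among NK cell markers 2 of 2 and among dendritic cell markers 2 of 3 were called lower. Plasma cell markers did not follow, at between 469 and 701 CPM in naive and between 522 and 593 CPM in stimulated samples. Of these 2 of 4 tested were called higher and 1 lower, beside 34.2% and 34.4% of all genes tested with the alleles summed. The part of these cell types in the E2F values was not tested. In such bulk samples fewer cells of a type and less RNA per cell cannot be told apart.

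After 24 h of CpG most of the family was higher, on both alleles. In the 129 tables all 10 genes passed the filter on low counts, and 7 were called higher and 0 lower (quasi-likelihood test of edgeR, adjusted p under 0.05), while 28.2% of all 10581 genes tested were called higher and 27.0% lower. In the Cast tables, 7 of 9 were called higher and 1 lower, beside 30.7% and 31.5% of 10365 genes. With the alleles summed the counts were again 7 and 1 of 9, beside 34.2% and 34.4% of 10343 genes. The median log2 fold change of the members was 2.04 in the 129 and 2.24 in the Cast tables, and that of all genes tested was -0.01 and -0.04. The steepest rises were those of E2f8, E2f7 and Tfdp1, E2f5 was not called in any table, and Tfdp2 was the member that fell.

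**Figure D1:**
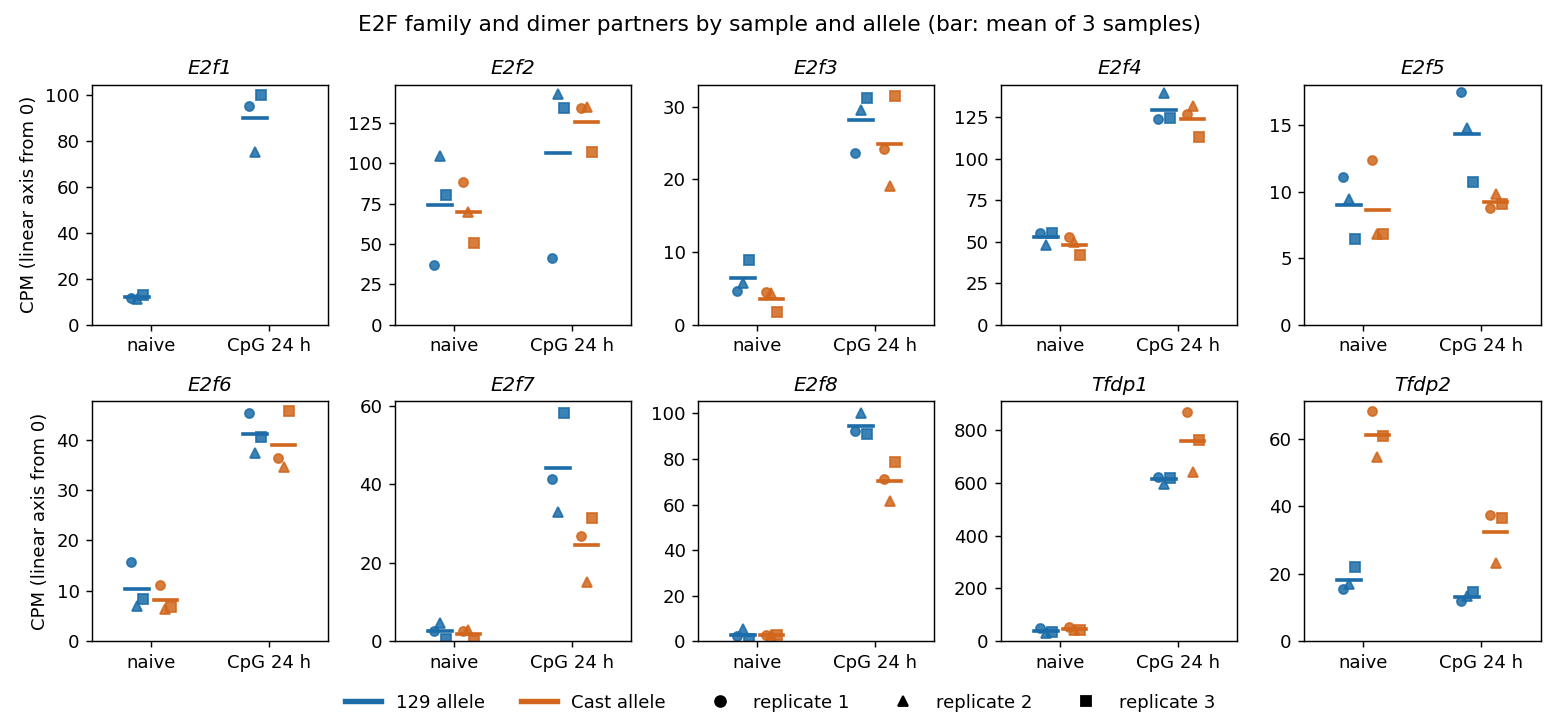
CPM of each member (vertical axes, linear from 0) in naive cells and after 24 h of CpG, 1 point per sample, 129 allele in blue and Cast allele in orange, with a bar at the mean of 3 samples. Stimulated points lie above all naive points for E2f1, E2f3, E2f4, E2f6, E2f7, E2f8 and Tfdp1, while the 129 points of E2f2 overlap because replicate 1 is low in both groups.

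Among the activators, E2f1 stood clearly apart between the groups. E2f1 (MGP_129S1SvImJ_G0026719; chr2:154559407-154569892, minus strand, GRCm38) was read 27, 27 and 26 times in naive and 267, 214 and 289 times in stimulated cells. The naive samples nearly coincided, and no stimulated sample came near them. In CPM it rose from 11.9 ± 0.950 to 90.3 ± 13.2 (SD, n = 3), which is 7.60-fold, with a log2 fold change of 2.92 (SE 0.18; adjusted p in edgeR, 2.26e-05).

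E2f3 (chr13:29906575-29986063, minus strand) was the scarcest activator by reads. It had 11, 14 and 18 reads in naive and 66, 84 and 90 in stimulated samples on the 129 allele, and 12, 12 and 4 against 77, 62 and 107 on the Cast allele. Every stimulated sample was above every naive sample on either allele. Its log2 fold change was 2.12 (SE 0.31; adjusted p in edgeR, 8.26e-04) in the 129 and 2.79 (SE 0.37, adjusted p = 1.49e-04) in the Cast tables.

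E2f2 (chr4:136172394-136196057, plus strand) was the activator with most reads in naive cells and the one that changed least. On the Cast allele it had 236, 194 and 119 reads in naive and 429, 439 and 364 in stimulated samples, with no overlap in CPM, and rose from 69.6 ± 18.8 to 125 ± 15.8 CPM (SD, n = 3; log2 fold change 0.85, SE 0.20, edgeR adjusted p = 0.00501). On the 129 allele it had 86, 253 and 162 reads in naive and 116, 407 and 388 in stimulated samples. Replicate 1 was the low sample in both groups there, and the groups overlapped. The 129 log2 fold change of 0.52 (SE 0.58) was not called (edgeR adjusted p = 0.477). Samples of like number deviated together throughout these tables, and with the replicate number as a block the 129 value was 0.48 and was called (edgeR adjusted p = 0.00995). Without both libraries numbered 1, left out after their values were seen, it was 0.59 (edgeR adjusted p = 0.0608). With the alleles summed E2f2 was called higher, with a log2 fold change of 0.73 (SE 0.17; adjusted p in edgeR, 0.00446).

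Of the repressors that work with pocket proteins, E2f4 rose moderately and evenly. E2f4 (chr8:105297663-105305370, plus strand) had 129, 117 and 111 reads in naive and 347, 397 and 360 in stimulated samples on the 129 allele, and 142, 139 and 98 against 405, 430 and 384 on the Cast allele. Both alleles gave separate groups. Its log2 fold change was 1.29 (SE 0.13; adjusted p in edgeR, 1.34e-04) in the 129 and 1.36 (SE 0.14, adjusted p = 3.56e-05) in the Cast tables. E2f5 (chr3:14578641-14606309, plus strand), its closest relative, had 26, 23 and 13 reads in naive and 49, 42 and 31 in stimulated samples on the 129 allele, and 33, 19 and 16 against 28, 32 and 31 on the Cast allele. Its groups overlapped in CPM on both. Its log2 fold change was 0.66 (SE 0.33; adjusted p in edgeR, 0.125) in the 129 tables and 0.09 (SE 0.33, adjusted p = 0.827) in the Cast tables. With the alleles summed it was 0.42 (SE 0.27; adjusted p in edgeR, 0.183).

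E2f6 (chr12:16810963-16839742, plus strand), the Polycomb-linked repressor, had 37, 17 and 17 reads in naive and 127, 106 and 117 in stimulated samples on the 129 allele. On the Cast allele the reads were 30, 18 and 16 against 116, 113 and 155. Naive replicate 1 was the highest of its group on both alleles and still below every stimulated sample. The log2 fold change was 1.97 (SE 0.32; adjusted p in edgeR, 0.00146) in the 129 and 2.24 (SE 0.26, adjusted p = 7.00e-05) in the Cast tables.

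The atypical repressors went from few reads to many. E2f8 (chr7:48866429-48881596, minus strand) had 5, 13 and 2 reads in naive and 258, 285 and 263 in stimulated samples on the 129 allele, and 7, 8 and 6 against 227, 201 and 268 on the Cast allele. E2f7 (chr10:110745439-110787384, plus strand) had 6, 11 and 1 reads against 116, 94 and 168 on the 129 allele, and 7, 8 and 0 against 86, 49 and 107 on the Cast allele. No stimulated sample of either gene came near a naive one. In CPM E2f8 was 33.4-fold higher in the 129 and 26.3-fold higher in the Cast tables, with log2 fold changes of 5.0 (SE 0.42; adjusted p in edgeR, 7.62e-05) and 4.69 (SE 0.22, adjusted p = 8.15e-07). E2f7 was 17.5-fold and 13.4-fold higher, with log2 fold changes of 4.06 (SE 0.53; adjusted p in edgeR, 5.92e-04) and 3.66 (SE 0.59, adjusted p = 5.43e-04). The small naive counts set the size of these folds. Without naive replicate 2, the sample with most naive 129 reads of both genes, the 129 log2 fold change was 5.84 for E2f8 and 4.76 for E2f7, both still called. Without naive replicate 3, the sample with fewest, the values were 4.64 and 3.62, also called.

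The DP partners, which dimerize with E2F1 to E2F6, went opposite ways. Tfdp1 (chr8:13338751-13378448, plus strand) had 114, 80 and 69 reads in naive and 1749, 1695 and 1790 in stimulated samples on the 129 allele, and 146, 119 and 103 against 2767, 2093 and 2599 on the Cast allele. It was 15.9-fold higher in the 129 and 16.1-fold higher in the Cast tables, with log2 fold changes of 3.99 (SE 0.18; adjusted p in edgeR, 1.21e-05) and 4.01 (SE 0.17, adjusted p = 6.52e-07). Tfdp2 (chr9:96196275-96323646, plus strand) had 182, 152 and 142 reads in naive and 119, 76 and 124 in stimulated samples on the Cast allele. It fell there from 61.1 ± 6.84 to 32.4 ± 7.85 CPM (SD, n = 3; log2 fold change -0.92, SE 0.20, edgeR adjusted p = 0.00350). On the 129 allele, with 36, 41 and 44 against 33, 38 and 42 reads, every stimulated sample was lower in CPM than every naive one, but the log2 fold change of -0.44 (SE 0.25) was not called (edgeR adjusted p = 0.171). Groups of Tfdp2 and of 7 other members did not overlap in the 129 tables, a separation that 64.8% of all tested genes had, and 8 of 9 members were separated in the Cast tables, beside 68.5%.

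**Figure D2:**
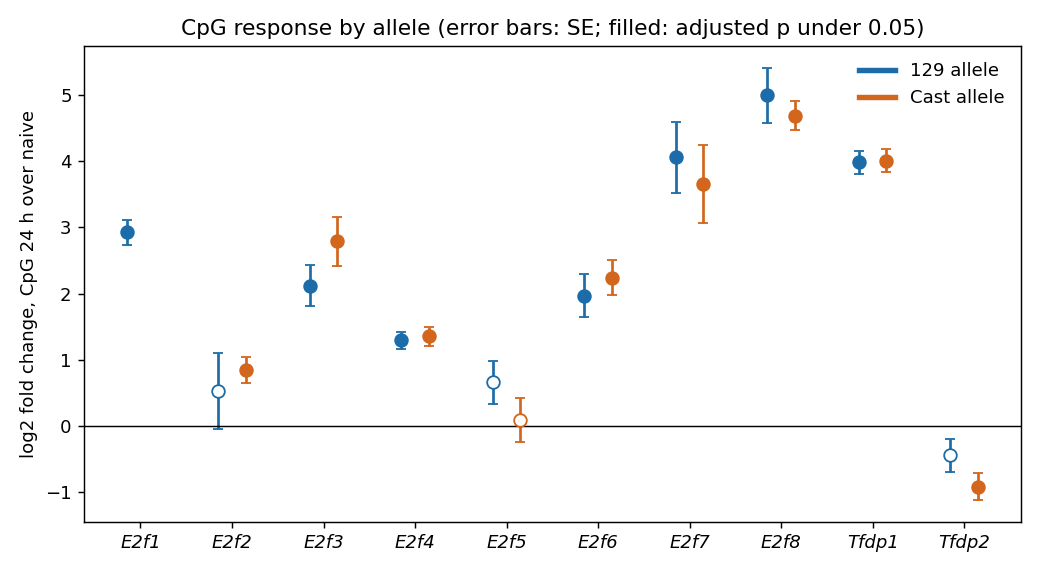
Log2 fold change of each member (vertical axis, stimulated over naive) with its SE, by allele, filled where the adjusted p was under 0.05. The alleles lie close for Tfdp1 (3.99 and 4.01) and E2f4 (1.29 and 1.36), and E2f5 is open on both.

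The promoters of members that rose are shown with the E2F words in them, since E2F genes are known targets of E2F proteins. RefSeq promoters of assembly GRCm38.p6, 250 bases before to 50 after the start, were at hand for 8 members. No entry was found for E2f4 and E2f5. Where a gene had more than 1 listed start, the most upstream one was taken. The 4 E2F words TTTCCCGC, TTTCGCGC, TTTGCCGC and TTTGGCGC and the 2 CHR words TTTGAA and TTCGAA, an element of genes expressed late in the cycle, were searched on both strands. None of the matches below overlapped another. The windows are chr4:136172024-136172323 (plus strand) for E2f2, chr13:29986014-29986313 (minus strand) for E2f3, chr10:110745189-110745488 (plus strand) for E2f7, chr7:48881547-48881846 (minus strand) for E2f8 and chr8:13338501-13338800 (plus strand) for Tfdp1. Sequences run 5′ to 3′ along the gene, and capitals mark the words, in E2f8 a CHR word, in E2f3 a CHR word followed by an E2F word, and in the others an E2F word.
E2f2: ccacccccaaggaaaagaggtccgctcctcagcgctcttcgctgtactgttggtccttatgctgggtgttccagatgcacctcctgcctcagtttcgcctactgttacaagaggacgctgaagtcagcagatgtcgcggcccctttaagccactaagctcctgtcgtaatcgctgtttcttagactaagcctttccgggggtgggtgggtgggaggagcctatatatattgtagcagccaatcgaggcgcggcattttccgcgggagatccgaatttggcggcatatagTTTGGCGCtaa
E2f3: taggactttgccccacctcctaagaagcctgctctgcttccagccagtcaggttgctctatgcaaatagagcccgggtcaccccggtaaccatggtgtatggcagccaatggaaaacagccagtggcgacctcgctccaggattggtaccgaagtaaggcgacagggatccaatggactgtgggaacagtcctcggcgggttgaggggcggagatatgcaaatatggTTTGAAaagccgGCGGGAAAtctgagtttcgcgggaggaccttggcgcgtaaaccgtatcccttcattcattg
E2f7: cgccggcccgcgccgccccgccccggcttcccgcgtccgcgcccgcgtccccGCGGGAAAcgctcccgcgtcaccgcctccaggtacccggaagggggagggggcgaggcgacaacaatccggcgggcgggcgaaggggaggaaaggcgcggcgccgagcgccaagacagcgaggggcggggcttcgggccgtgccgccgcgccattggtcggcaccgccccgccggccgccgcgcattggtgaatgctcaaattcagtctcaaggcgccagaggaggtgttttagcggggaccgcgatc
E2f8: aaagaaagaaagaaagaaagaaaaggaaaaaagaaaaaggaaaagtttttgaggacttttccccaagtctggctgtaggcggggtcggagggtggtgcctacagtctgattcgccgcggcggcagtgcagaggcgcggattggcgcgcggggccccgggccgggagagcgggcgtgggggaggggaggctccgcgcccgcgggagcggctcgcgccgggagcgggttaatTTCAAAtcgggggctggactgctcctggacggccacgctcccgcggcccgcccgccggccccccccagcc
Tfdp1: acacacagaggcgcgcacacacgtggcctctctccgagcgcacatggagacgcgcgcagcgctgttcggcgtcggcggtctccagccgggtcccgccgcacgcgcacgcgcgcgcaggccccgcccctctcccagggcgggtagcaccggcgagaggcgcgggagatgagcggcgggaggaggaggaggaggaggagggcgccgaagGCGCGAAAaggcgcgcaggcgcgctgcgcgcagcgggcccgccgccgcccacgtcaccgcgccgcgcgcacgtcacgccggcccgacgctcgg
An E2F word was in 4 of the 8 member promoters and in 2.33% of all 27025. A CHR word was in 2 of the 8 and in 19.5% of all. The E2F word of E2f3 (TTTCCCGC on the opposite strand) began 11 bases before the start, that of Tfdp1 (TTTCGCGC, opposite strand) 43 bases before it and that of E2f7 (TTTCCCGC, opposite strand) 198 bases before it. In E2f2 TTTGGCGC began 39 bases after the start. The windows of E2f1, E2f6 and Tfdp2 held none of these words, but those of E2f1 and Tfdp2 lie within the genes as annotated here, so the sequence before their annotated starts was not searched. A match is a description of sequence and was not tested as a binding site.

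The makeup of the family's mRNA changed as well. To set genes side by side, CPM of the summed alleles was divided by the exon length of each gene in kb. Only reads that tell the strains apart were counted, so a gene with few strain differences is underrated, and the part of this in the order was not tested. E2f1 is not in the order that follows, since it had no Cast row. In the 129 tables it was at 3.76 CPM per kb in naive and 28.6 in stimulated cells, where E2f4 was at 52.8, E2f2 at 21.8 and E2f8 at 17.4 in stimulated cells. With the alleles summed, in naive cells E2f4 led at 24.5 ± 1.57 CPM per kb, followed by E2f2 at 17.5 ± 3.07, E2f5 at 5.92 ± 1.77 and E2f6 at 1.94 ± 0.761 (SD, n = 3). E2f3 at 1.07, E2f8 at 0.604 and E2f7 at 0.286 CPM per kb closed the order, in which the samples of E2f8 and E2f7 overlapped. In stimulated cells E2f4 was at 63.0 ± 4.01, E2f2 at 29.1 ± 5.86 and E2f8 at 18.3 ± 0.622 CPM per kb (SD, n = 3). E2f6 at 8.61, E2f5 at 7.96, E2f3 at 5.93 and E2f7 at 4.56 CPM per kb came after these, each overlapping its neighbour in this order across samples. Tfdp1 stood at 14.0 ± 2.45 CPM per kb in naive and 230.0 ± 23.4 in stimulated cells, and Tfdp2 at 3.50 ± 0.292 and 2.05 ± 0.374 (SD, n = 3).

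As shares of the summed level of E2f2 to E2f8, E2f7 and E2f8 together held 1.59%, 2.52% and 0.927% in the naive and 17.4%, 14.5% and 18.2% in the stimulated samples. The activators E2f2 and E2f3 together held 30.6%, 40.7% and 36.1% in naive and 21.5%, 27.7% and 27.0% in stimulated samples. Thus the atypical repressors had a larger share in every stimulated than in any naive sample, and this pair of activators a smaller one. The members of the pair differed, as E2f2 went from 28.8%, 38.7% and 33.8% to 17.4%, 24.0% and 21.9%, and E2f3 from 1.85%, 2.03% and 2.38% to 4.10%, 3.72% and 5.15%. The 129 tables, which include E2f1, gave the activators 40.0% ± 11.2 in naive and 37.8% ± 5.18 in stimulated samples (SD, n = 3), with E2f1 alone at 7.67% ± 0.953 and 19.7% ± 3.67. These activator shares overlapped between the groups, and in the 129 tables the share of E2f2 alone overlapped too, at 17.0%, 39.8% and 32.9% against 6.38%, 19.2% and 18.1%. E2f4 and E2f5 held 58.8% ± 4.31 in naive and 51.6% ± 3.31 in stimulated samples (SD, n = 3, alleles summed). These groups overlapped. On each allele by itself the pair had a smaller share in every stimulated than in any naive sample. The 129 tables gave 64.9%, 46.6% and 52.2% in naive and 45.4%, 42.8% and 37.4% in stimulated samples. The Cast tables gave 56.9%, 58.65% and 62.8% against 51.0%, 54.2% and 48.8%. E2f4 alone held 47.4% ± 2.99 and 45.8% ± 2.45 with the alleles summed, with overlap. E2f5 alone went from 11.3% ± 2.71 to 5.80% ± 0.896 without overlap (alleles summed). In the 129 tables the share of E2f5 did overlap, at 14.1%, 9.91% and 7.24% against 7.39%, 5.43% and 3.96%. In the Cast tables the share of E2f5 did not overlap.

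**Figure D3:**
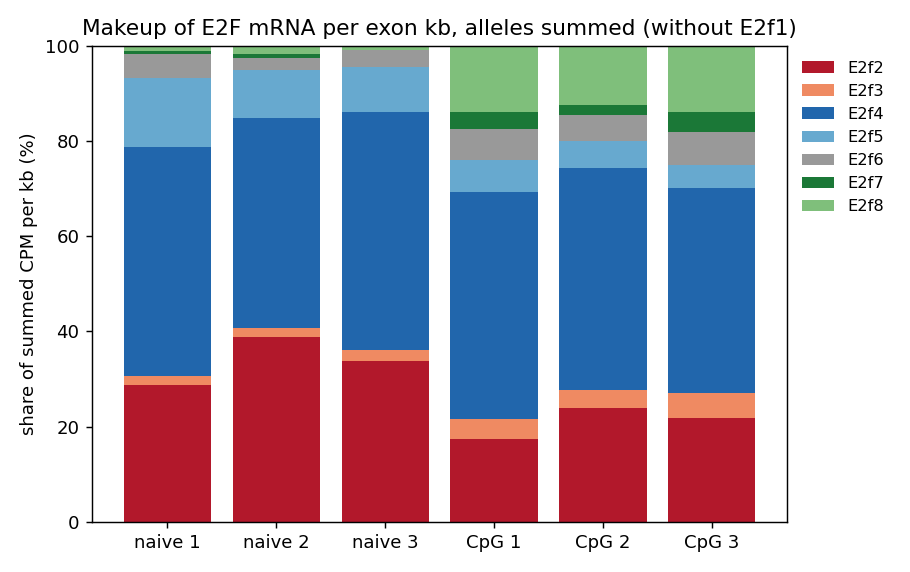
Share of each E2F gene in the summed CPM per exon kb of E2f2 to E2f8 (vertical axis, percent), 1 bar per sample, alleles summed. The green parts, E2f7 and E2f8, grow from at most 2.52% in naive to at least 14.5% in stimulated samples.

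The alleles were next compared in the same samples. Over all autosomal genes, Cast reads made up 52.7% ± 0.793 of Cast and 129 reads in naive and 52.9% ± 0.812 in stimulated samples (SD, n = 3), here called the Cast share. E2f4 lay near it in all samples, at 52.4%, 54.3% and 46.9% in naive and 53.9%, 52.0% and 51.6% in stimulated cells. Tfdp1 lay a little above, at 56.2%, 59.8% and 59.9% and then 61.3%, 55.3% and 59.2%. Tfdp2 was the member most given to Cast, at 83.5%, 78.8% and 76.3% in naive and 78.3%, 66.7% and 74.7% in stimulated cells. Among the 7784 autosomal genes that had 20 or more reads in each sample, 94.3% had a lower mean Cast share than Tfdp2. E2f7 was the lowest member, at 42.6% (95% Wilson interval 36.0 to 49.5), 34.3% (27.0 to 42.4) and 38.9% (33.3 to 44.8) in the stimulated samples. In naive replicate 3 E2f7 had 1 read in all, which fixes no share. Strain tables carry separate annotations, and the part of that in a share far from the autosomal one was not tested.

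CpG did not shift the alleles of any member past the threshold. The change of the Cast-to-129 ratio was tested as an interaction in edgeR over 10051 genes, of which 0.945% were called. Of 9 members 0 were called, and the smallest unadjusted p was 0.143, for Tfdp2 (log2 change of the ratio -0.50, SE 0.30, edgeR adjusted p = 0.644). With the replicate number as a block 7.69% of genes and again 0 members were called, E2f2 coming closest (log2 change 0.43, edgeR adjusted p = 0.0899). For none of the 9 did the Cast shares of the 3 naive and 3 stimulated samples separate, while they did for 19.4% of autosomal genes. The SE was largest for E2f2, at 0.80 around a log2 change of 0.42, although E2f2 had 281 to 846 reads per sample. Some low members had wide intervals too. For E2f3 the log2 change was 0.66 with an SE of 0.56, so a sizeable difference between alleles was not detectable at this depth. The SE was smallest for E2f4, with a log2 change of 0.07 and an SE of 0.15, followed by Tfdp1 with 0.00 and 0.17.

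**Figure D4:**
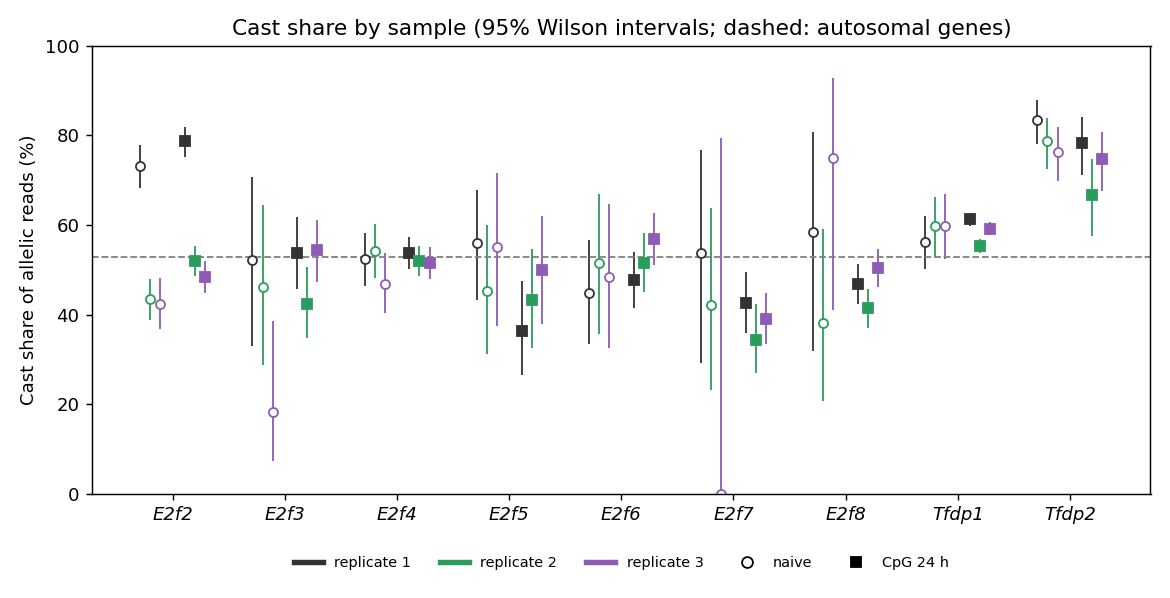
Cast share of allelic reads (vertical axis, percent) of 9 members in each sample, with 95% Wilson intervals for counting error, naive samples open and stimulated samples filled, and the autosomal share dashed. E2f2 in replicate 1 (73.3% naive, 78.7% stimulated) stands above its other samples, and Tfdp2 lies above the dashed line throughout.

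The Cast share of E2f2 set replicate 1 apart from replicates 2 and 3. It was 73.3% (68.2 to 77.8, 95% Wilson interval), 43.4% (38.9 to 48.0) and 42.3% (36.7 to 48.2) in naive cells, in the order of replicates 1, 2 and 3, and 78.7% (75.1 to 81.9), 51.9% (48.5 to 55.2) and 48.4% (44.8 to 52.0) in stimulated ones. Replicate 1 was the high sample of both groups. Its 129 reads were the low ones, 86 and 116, while its Cast reads were the highest of the naive group and second to replicate 2 in the stimulated group. Some of the genes next to E2f2 on chromosome 4 shared this and others did not. For 12 genes starting within 1 Mb of it, the median Cast share in replicate 1 was 70.4% when naive and 79.3% when stimulated, and between 50.4% and 54.5% in the other 4 samples. Lypla2 had 94.9% and 93.4% in replicate 1 against 47.9% to 57.0% elsewhere, and Zfp46 87.7% and 88.7% against 47.6% to 54.9%. Kdm1a, at 43.2% and 39.7% in replicate 1, and Zbtb40, at 53.7% and 47.2%, did not stand apart. In all, 5 of the 12 had both replicate 1 libraries over 20 points above the other 4. Of 131 genes within 10 Mb of E2f2, E2f2 included, 16 met this criterion. Of these, 15 started between 3.82 Mb before and 0.112 Mb after E2f2, a stretch that held 48 of the 131 genes, and 0 of the 34 genes from 0.5 to 10 Mb after it were among them. Genes from 4 to 10 Mb after E2f2, 17 in all, were high in replicates 1 and 2 instead, with medians of 77.0% and 79.1% in naive cells and 49.9% in replicate 3. Among 9452 autosomal genes tested for the ratio, 101 (1.07%) showed replicate 1 standing apart in this way.

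**Figure D5:**
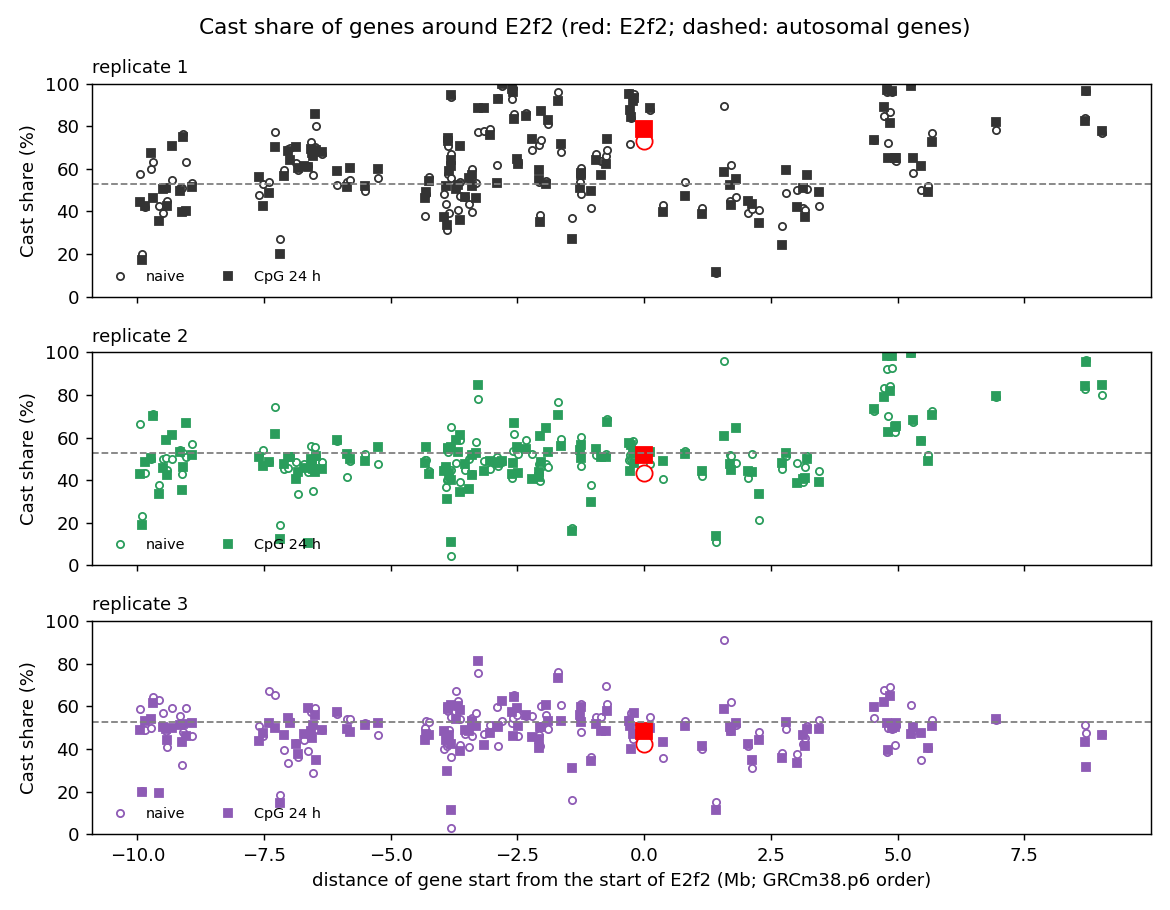
Cast share (vertical axis, percent) of genes within 10 Mb of E2f2 against the distance of their start from that of E2f2 (Mb), 1 panel per replicate number, naive open and stimulated filled, E2f2 in red. In replicate 1 genes such as Lypla2 (94.9% naive) and Zfp46 (87.7% naive) lie far above the dashed line, while these and E2f2 lie nearer to it in replicates 2 and 3.

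The surroundings of other members gave other values. Within 1 Mb of E2f1, 13 genes had median Cast shares of 55.4% and 57.5% in replicate 1 and between 44.6% and 46.5% in the other samples. Within 1 Mb of E2f6, 6 genes had medians of 76.7% and 73.8% in replicate 3 and between 49.1% and 53.9% in the others, while E2f6 itself was at 48.5% and 57.0% in replicate 3. Neighbours of Tfdp2, 8 genes, lay between 46.5% and 51.5% in all 6 samples, unlike Tfdp2 itself. Neighbours of E2f7, only 3 genes, were high in every sample, between 59.3% and 81.6%. The source of these stretches was not tested.

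The partners of the E2F proteins moved in both directions. Of the pocket proteins, Rbl2, which encodes p130, had 1087, 1062 and 986 reads in naive and 315, 406 and 379 in stimulated samples with the alleles summed. It fell by 1.82 in log2 fold change (SE 0.11; adjusted p in edgeR, 9.15e-07). Rbl1, which encodes p107, had 160, 247 and 168 reads in naive and 790, 765 and 695 in stimulated samples, a rise of 1.67 (SE 0.15; adjusted p in edgeR, 9.44e-06). Rb1, the retinoblastoma gene, had a log2 fold change of -0.02 (SE 0.10) and was not called (edgeR adjusted p = 0.875). In the MuvB group, which pairs with p130 and E2F4 in resting cells and with B-Myb and FoxM1 in dividing ones, 6 of 7 genes tested with the alleles summed were called higher and 0 lower. Of all genes tested, 34.2% were called higher and 34.4% lower. Mybl2, the gene of B-Myb, had 46, 42 and 17 reads in naive and 1524, 1403 and 1536 in stimulated samples (log2 fold change 5.12, SE 0.22, edgeR adjusted p = 2.54e-07). Mybl1 rose by 3.22, Foxm1 by 3.02, Lin54 by 1.22, Rbbp4 by 0.88 and Lin9 by 0.71. Lin37 had a log2 fold change of -0.07 and was not called (edgeR adjusted p = 0.661). Lin52 was tested in the Cast tables alone and was not called there (edgeR adjusted p = 0.276).

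Upstream, the kinases that release E2F proteins from pocket proteins were mostly higher. Of 7 G1 cyclin and kinase genes tested with the alleles summed, 5 were called higher and 2 lower, beside 34.2% and 34.4% of all genes. Ccne1 had 32, 29 and 21 reads in naive and 552, 493 and 697 in stimulated samples, and Ccne2 had 10, 13 and 6 against 667, 391 and 673. These genes of cyclin E rose by log2 fold changes of 4.10 (SE 0.18) and 5.59 (SE 0.31; edgeR adjusted p = 2.04e-07 and 9.02e-07). Cdk4 rose by 2.28, Cdk2 by 1.94 and Ccnd2 by 2.42, and Cdk6, tested in the 129 tables alone, rose by 2.61 (edgeR adjusted p = 2.85e-05). Ccnd3 fell by 2.39 with the alleles summed, by 1.5 in the 129 and by 4.54 in the Cast tables. Ccnd1 went from 20, 15 and 17 reads to 0, 1 and 0. Of the genes of kinase inhibitors 4 of 7 were tested. Cdkn1b, the gene of p27, fell by 1.54 (SE 0.18; adjusted p in edgeR, 6.20e-05). Cdkn2c, the gene of p18, had 1, 5 and 6 reads in naive and 106, 130 and 96 in stimulated samples (log2 fold change 4.44, SE 0.42, edgeR adjusted p = 1.16e-05). Cdkn1a rose by 1.82 from 5, 4 and 21 reads (edgeR adjusted p = 0.0180), and in the 129 tables it was not called (edgeR adjusted p = 0.0933). Cdkn2d was not called (edgeR adjusted p = 0.347). Cdkn1c, Cdkn2a and Cdkn2b had at most 18 reads in any sample and were not tested.

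Genes known as E2F targets rose almost without exception. Of 40 listed for the entry into S phase 37 were tested with the alleles summed. Of these 36 were called higher and 0 lower, beside 34.2% and 34.4% of all genes tested. The median log2 fold change of the 37 was 3.48, beside -0.01 over all genes tested. Mcm10, a replication factor, had 28, 57 and 13 reads in naive and 2582, 2760 and 2709 in stimulated samples. The helicase loader Cdc6 rose by 5.92 (SE 0.36) and Rrm2, a subunit of ribonucleotide reductase, by 5.91 (SE 0.25; edgeR adjusted p = 3.45e-06 and 3.02e-07). The member of the list not called, named after its value was seen, was Cdt1, a licensing factor, with a log2 fold change of 0.25 (SE 0.14; adjusted p in edgeR, 0.131). Of 24 genes for G2 and mitosis 22 were tested and all 22 were called higher, beside 34.2% of all genes tested. Their median log2 fold change was 4.72. Bub1, a checkpoint kinase, rose by 5.95, the mitotic kinase gene Cdk1 by 5.79 and Bub1b by 5.71. The RefSeq promoters at hand held an E2F word for 14 of 34 genes of the first list (41.2%) and 1 of 19 of the second (5.26%), and a CHR word for 6 (17.6%) and 14 (73.7%).

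Genes tied to E2F6 behaved differently from one another. Of 11 genes tested of its Polycomb complex, 7 were called higher and 1 lower with the alleles summed, beside 34.2% and 34.4% of all genes tested. Their median log2 fold change was 0.88, and that of all genes tested was -0.01. Cbx3 rose by 1.88, Hdac2 by 1.22 and Yaf2 by 1.08, and Ring1 fell by 0.69 (edgeR adjusted p = 0.00671). Of 14 germline genes that E2F6 is known to repress, 11 had a row with the alleles summed, and 5 of these were at 0 in all stimulated samples. Only Hsf2bp passed the filter, with 1, 2 and 3 reads in naive and 52, 55 and 70 in stimulated samples (edgeR adjusted p = 1.32e-05), and the other genes of the list were too low to be tested.

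The genes whose profile over the 6 samples was most like that of a member were found by the root mean square difference of centred log2 CPM. For E2f1, among 9617 named genes of the 129 tables, these were Ppat (0.0783), Fam136a (0.0962) and Pa2g4 (0.105). For E2f4, among 10342 genes with the alleles summed, they were Lonp1 (0.0387), Sass6 (0.0388) and Klhdc4 (0.0498). For E2f8 they were Uhrf1 (0.101), C330027C09Rik (0.158) and Ttk (0.173), of which Uhrf1 and Ttk were on the target lists above.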

How the data were processed

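RNA of splenic CD23+ B cells was sequenced from a TruSeq stranded total RNA library, per the labels. Each sample had 2 deposited tables of raw read counts per gene, 1 for each strain annotation, per the file headers and gene identifiers. The submitters' processing notes name STAR, featureCounts, Subread 2.0.0 and the build mm10. How a read was given to a strain is not given in the sources used here, and genes sharing near-identical copies may be split by it. The rows for reads in no gene stayed out of library sizes. They were 44.5% to 67.1% of the reads counted in a gene, in no gene or as ambiguous.

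Counts were tested with edgeR 4.0.16 in R 4.3.3 (robust quasi-likelihood, TMM, filterByExpr, Benjamini-Hochberg over all genes tested). The SE was derived from the F statistic. Alleles were summed or compared over 28374 genes matched by name and chromosome. The scripts were tested on simulated data. Alternatives included DESeq2 1.42.0. Same-numbered naive and stimulated samples correlated in their deviations from the group means (129 tables: r = 0.549, 0.436 and 0.599, Cast tables: r = 0.219, 0.157 and 0.239). The main tests nevertheless had no term for the replicate number, so their p-values ignore this pairing. Only the alternative called the replicate block took the numbers to pair the samples. That pairing comes from the data, since the labels name no shared animal, and p-values measure the spread between these samples.

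The members and lists were chosen with earlier results of these data known. All 10 members were named. Lists of up to 8 genes were named in full, and from longer ones up to 3 of the largest rises and falls among called genes with a mean of at least 20 reads. Genes like a member were the 3 nearest to E2f1, E2f4 and E2f8 (prior count 2). Exon lengths and positions came from GENCODE M21 on GRCm38, not the strain genomes. Intervals cover counting error only.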

Additional observations from a re-analysis of the deposited data

How the results depend on the processing

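The count of members called stayed at 8 in the Cast tables and with the alleles summed under every alternative run, and in the 129 tables it was 7 under all but the replicate block, where E2f2 made it 8. Leaving out 1 sample at a time gave 7 to 7, 8 to 8 and 8 to 8. The block changed no other call among the members. Their direction turned only where the change was not called. With 1 sample left out, the Cast value of E2f5 ran from -0.041 (without naive replicate 2; -0.036 without naive replicate 3) to 0.47. The log2 change of the Cast-to-129 ratio ran from -0.18 (without stimulated replicate 1) to 1.01 for E2f2 and from -0.049 (without naive replicate 3) to 0.16 for E2f4. For Tfdp1 it ran from -0.078 (without stimulated replicate 1) to 0.10, with -0.073 without naive replicate 1 and -0.016 without stimulated replicate 3, and was -0.15 without both libraries numbered 1, chosen after seeing the data.

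The number of all genes called for the ratio was 95, 773 with the replicate block, 15 without both libraries numbered 1 and 14 to 26 with 1 sample left out. The cause was not tested, but fewer samples were in the latter fits. Members whose Cast shares did not overlap between groups numbered 0, or 1 to 2 with 1 sample left out, and 4 members moved the same way in all 3 pairs under the replicate block, where the smallest possible sign-flip p is 0.25. In stimulated cells the activators' share was 37.8% in the 129 tables, which hold E2f1, against 25.4% with the alleles summed, and that of E2f7 and E2f8 was 14.5% in the Cast tables against 16.7%. Low naive counts of E2f7 and E2f8 limit the precision of their folds.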

Other observations

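Of 10 genes listed as E2F1 targets in apoptosis, 8 were tested with the alleles summed, and 4 were called higher and 2 lower, beside 34.2% and 34.4% of all genes tested. Casp8, an initiator caspase, rose by 0.83 in log2 fold change (SE 0.13, edgeR adjusted p = 3.12e-04) and Apaf1, the core of the apoptosome, by 0.53. Trp53inp1, a p53-induced gene, had 817, 675 and 696 reads in naive and 77, 66 and 98 in stimulated samples and fell by 3.49 (SE 0.16, edgeR adjusted p = 2.51e-07), and Ppp1r13b fell by 1.98. Of 7 genes tested for ubiquitin ligases that act on E2F or DP proteins or their partners, 4 were called higher and 1 lower, beside the same shares of all genes.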
